A study of Mus musculus with 12 samples.

Results

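The immunoglobulin variable (V) segments are the gene pieces that code for most of the antigen-binding part of an antibody. The 175 described here were all genes of the count table whose symbol starts with Ighv (heavy chain), Igkv (kappa light chain) or Iglv (lambda light chain) followed by a digit, and whose counts summed over the 12 libraries reached 50. They were taken from 348 annotated V segments among 54532 genes in the table. They were chosen by this summed count alone. Of the segments not chosen, 108 had no count in any library and 65 had between 1 and 49. Just outside the rule stood Ighv3-4 with 44 counts and Ighv8-5 with 45, and just inside it Ighv8-11 with 51 and Ighv1-14 with 52. The members held between 98.4% and 99.7% of all V counts in each library.

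The study profiled polyadenylated RNA of whole mouse lung in 4 groups of 3 libraries. Every animal carried Cc10-Cre, which expresses Cre recombinase from the promoter of the club cell secretory protein. Animals with Cc10-Cre alone (genotype RhoAWT) are called WT here, and Cc10-Cre;Rhoafl/fl animals, in which the small GTPase gene Rhoa is flanked by loxP sites, are called CKO. Each genotype received PBS or CRE, a treatment name that the labels do not spell out. The labels name no strain, age, dose or duration, and give all libraries the same batch number. Nothing in the labels says that the libraries of a group came from separate animals, so p-values measure only the spread between these libraries. Y-linked counts, given below, showed both sexes within CKO with PBS and within both CRE groups, so each of these held more than 1 animal. In WT with PBS, and between libraries of the same sex, the spread may be technical.

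Libraries held between 16250674 and 21559210 counts. Rhoa stood at 474 to 534 counts per 1000000 (CPM) in the 6 WT libraries and at 399 to 534 in the 6 CKO libraries, so the ranges overlapped in this mixed tissue. The lung identity was clear from Sftpc, the surfactant gene of alveolar type II cells, at 8650 to 16683 CPM, whereas Scgb1a1, which codes for the Cc10 protein itself, stood at 5.79 to 46.5 CPM. Y-linked counts were absent or nearly so in replicate 2 of CKO with PBS and in replicates 2 and 3 of both CRE groups, and ranged from 2594 to 4217 elsewhere. Both CRE groups thus held 1 male and 2 female libraries, whereas WT with PBS was all male, and sex moved with CRE in WT.

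A B cell builds its antibody genes by joining 1 V segment to shorter pieces at the heavy chain locus and again at a light chain locus, and each daughter cell inherits the joined gene. V segments are transcribed strongly only after this joining, most of all in plasma cells, which secrete antibody. The summed V counts of a tissue therefore follow the amount of B and plasma cell RNA, and the share of each segment follows which clones supply it. In bulk RNA more cells of a type and more RNA per cell cannot be told apart. Inbred mouse strains also differ in which heavy chain V segments they carry and in their sequence.

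The members comprised 87 heavy chain segments of 14 families on chromosome 12, all on the minus strand, 85 kappa segments of 19 families on chromosome 6, and 3 lambda segments on chromosome 16, in the GRCm38 (mm10) annotation GENCODE M21. The heavy members spanned chr12:113572927-116000461, the kappa members chr6:67609713-70704177 and the lambda members chr16:19085017-19260859. Segments of 1 family resemble each other closely, which bears on how reads can be assigned. Of the 175 members, 13 had another annotated segment at least 98% identical over 200 or more bases, and the median identity to the closest other segment was 95.3%.

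The sequences below carry the results that follow. Each is the 120 bases of the V exon, on the coding strand, that end shortly after the conserved tyrosine-(tyrosine or phenylalanine)-cysteine codons, which are in capitals and mark where the V segment is joined. They were copied from the GENCODE M21 transcripts.

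Heavy and kappa segments whose share was higher with CRE, and a heavy and a kappa segment known as partners in B-1 cell antibodies:
Ighv8-12: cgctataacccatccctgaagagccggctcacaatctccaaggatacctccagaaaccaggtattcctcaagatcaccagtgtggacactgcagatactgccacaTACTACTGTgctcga
Igkv12-44: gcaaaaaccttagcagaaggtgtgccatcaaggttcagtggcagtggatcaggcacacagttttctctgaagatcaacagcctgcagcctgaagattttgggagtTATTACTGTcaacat
Ighv11-2: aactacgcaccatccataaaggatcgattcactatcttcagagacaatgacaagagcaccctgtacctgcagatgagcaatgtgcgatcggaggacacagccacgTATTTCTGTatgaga
Igkv14-126: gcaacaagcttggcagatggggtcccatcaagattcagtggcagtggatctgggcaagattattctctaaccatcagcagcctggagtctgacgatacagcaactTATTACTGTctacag

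Common or called Ighv1 family segments that were at 0 in 1 or more CKO libraries with CRE:
Ighv1-81: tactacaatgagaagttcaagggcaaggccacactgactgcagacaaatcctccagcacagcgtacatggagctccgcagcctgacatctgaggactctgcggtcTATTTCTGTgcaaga
Ighv1-55: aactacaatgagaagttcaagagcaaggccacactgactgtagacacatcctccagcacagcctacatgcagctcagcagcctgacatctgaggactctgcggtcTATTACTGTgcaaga
Ighv1-61: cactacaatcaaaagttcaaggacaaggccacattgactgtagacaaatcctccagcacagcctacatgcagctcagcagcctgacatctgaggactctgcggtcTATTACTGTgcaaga

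The proximal heavy segment Ighv5-6, and a pair of annotated pseudogenes that had counts almost only in CKO libraries:
Ighv5-6: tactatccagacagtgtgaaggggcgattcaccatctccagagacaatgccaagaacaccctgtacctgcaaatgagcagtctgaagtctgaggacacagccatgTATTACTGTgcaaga
Ighv5-1: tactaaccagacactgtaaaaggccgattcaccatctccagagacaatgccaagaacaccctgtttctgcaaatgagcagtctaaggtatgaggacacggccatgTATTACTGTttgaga
Ighv4-2: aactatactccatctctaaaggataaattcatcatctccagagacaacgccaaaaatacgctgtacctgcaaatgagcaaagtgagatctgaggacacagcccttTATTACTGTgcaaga

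The most used kappa and lambda segments with close relatives:
Igkv1-110: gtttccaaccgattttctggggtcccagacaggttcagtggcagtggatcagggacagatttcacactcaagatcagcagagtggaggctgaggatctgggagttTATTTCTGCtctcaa
Igkv1-117: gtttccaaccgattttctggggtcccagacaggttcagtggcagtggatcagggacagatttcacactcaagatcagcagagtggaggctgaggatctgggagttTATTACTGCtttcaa
Iglv1: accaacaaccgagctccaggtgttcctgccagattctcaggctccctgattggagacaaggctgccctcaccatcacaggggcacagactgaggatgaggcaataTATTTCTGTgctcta
Iglv2: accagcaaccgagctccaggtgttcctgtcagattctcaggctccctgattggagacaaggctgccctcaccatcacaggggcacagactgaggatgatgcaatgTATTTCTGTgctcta

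On GRCm38 the printed stretches lay on the minus strand at chr12:115647949-115648068 for Ighv8-12, chr12:114048243-114048362 for Ighv11-2, chr12:115920279-115920398 for Ighv1-81, chr12:115208095-115208214 for Ighv1-55 and chr12:115359140-115359259 for Ighv1-61. Those of Ighv5-6, Ighv5-1 and Ighv4-2 lay on the same strand at chr12:113625508-113625627, chr12:113572929-113573048 and chr12:114013146-114013265. Igkv12-44 lay on the minus strand at chr6:69814648-69814767, whereas Igkv14-126, Igkv1-110 and Igkv1-117 lay on the plus strand at chr6:67896506-67896625, chr6:68271131-68271250 and chr6:68121691-68121810. Iglv1 and Iglv2 lay on the minus strand at chr16:19085035-19085154 and chr16:19260419-19260538. Igkv1-110 and Igkv1-117 matched at 118 of the 120 bases, Iglv1 and Iglv2 at 116, Ighv1-81 and Ighv1-55 at 112, and Ighv5-6 and Ighv5-1 at 106. In the frame of the capitals Ighv5-1 had 1 stop codon and the other 13 stretches had none.

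Summed V segment RNA rose with CRE. In WT with PBS the summed V level was 171, 169 and 139 CPM in replicates 1 to 3, and in WT with CRE it was 1156, 1102 and 2069. In CKO with PBS it was 102, 242 and 122, and in CKO with CRE 254, 966 and 1191. Every CRE library was above every PBS library in this sum, and replicate 1 of CKO with CRE was closest to them. For heavy and lambda segments alone that library, at 76.9 and 15.8 CPM, lay below replicate 2 of CKO with PBS, at 94.2 and 25.4 CPM. The female CKO libraries, replicate 2 with PBS and replicates 2 and 3 with CRE, had the highest sums of their groups. In WT with CRE the male library, replicate 1, lay between the female ones. The part of sex in the summed level was not tested. Averaged over the genotypes, the log2 level rose by 2.66 with CRE (exact permutation test within genotypes, two-sided, p = 0.005, the smallest that 400 relabellings can give, adjusted p = 0.03 over 6 values). The rise was 3.12 in WT and 2.20 in CKO on the log2 scale, each with p = 0.1 in an exact permutation test of 3 against 3, which cannot go lower. The difference between those responses was -0.92 and lay between -1.34 and -0.23 when 1 library at a time was left out. Between the genotypes the averaged log2 level differed by -0.60 (exact permutation p = 0.21, adjusted 0.315).

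**Figure D1:**
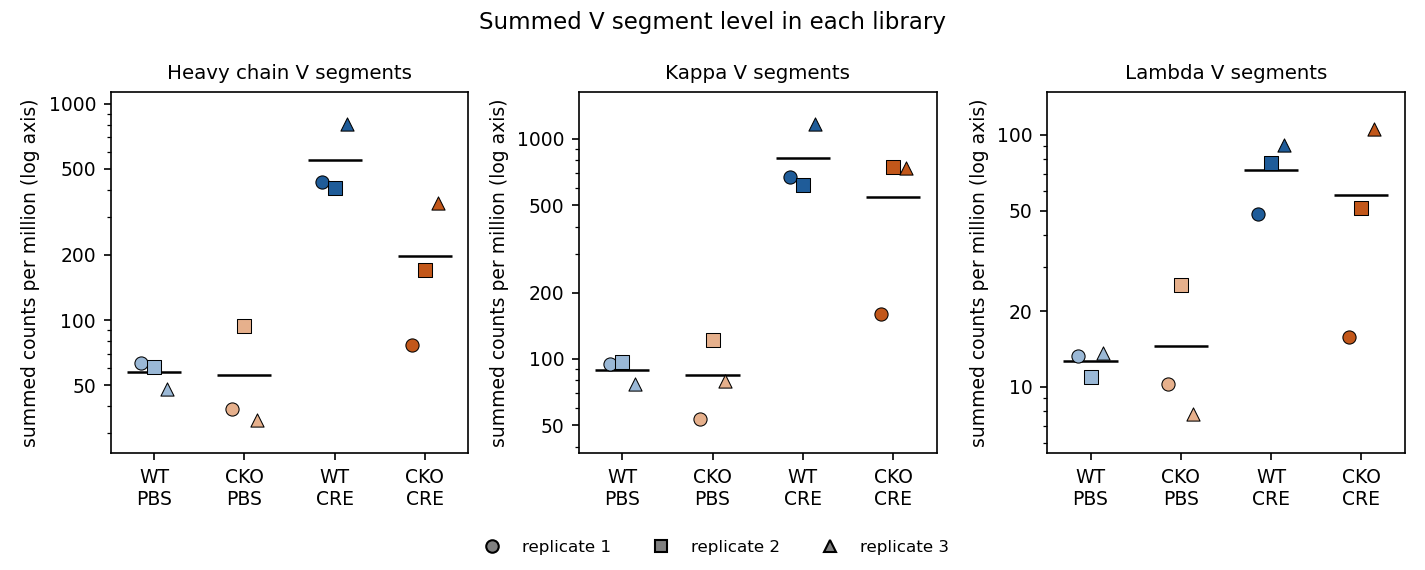
Summed CPM of heavy, kappa and lambda V segments in each library (points, log axis) with the group mean (line), 3 libraries a group. Replicate 1 of CKO with CRE sits lowest of the CRE libraries in every panel, with 76.9 CPM for heavy, 161 for kappa and 15.8 for lambda segments, and is below replicate 2 of CKO with PBS for heavy and lambda.

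The loci did not move by the same amount. In WT the mean level with CRE was 9.58 times that with PBS for heavy segments, 9.13 times for kappa and 5.73 times for lambda. In CKO it was 3.56 times for heavy, 6.44 times for kappa and 3.97 times for lambda. Under CRE the mean CKO level stood at 0.360 of the WT level for heavy segments, 0.669 for kappa and 0.795 for lambda. These are ratios of group means over 3 libraries with no test of their own.

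Single segments were tested in edgeR's quasi-likelihood fit over all 17473 genes that passed its filter on low counts, with Benjamini-Hochberg adjustment and a threshold of 0.05. Of the 175 members 156 were tested, 75 heavy, 78 kappa and 3 lambda, and 19 were too low. With CRE in WT, 117 rose and none fell, against 57% of all tested genes called, 28.6% higher and 28.4% lower. These were 52 heavy, 62 kappa and all 3 lambda segments, and the median log2 fold change over the 156 was 3.08, against 0.01 over all tested genes. With CRE in CKO, 63 rose and none fell, against 39.1% of all tested genes called, 20.6% higher and 18.5% lower. These were 19 heavy, 42 kappa and 2 lambda segments. The median in CKO was 1.53 for heavy and 2.67 for kappa segments, against 3.08 and 3.12 in WT. Left-out libraries moved the CKO count between 42 and 88, the lowest without replicate 1 of CKO with PBS, where 30.8% of all tested genes were called. The members' rule favours segments that are high in some group, so these counts are descriptions. Of the 99 members that reached 50 counts in the PBS libraries alone, 73 rose in WT and 46 in CKO. Of the segments that rose, 49 did so in both genotypes, which is 41.9% of the WT list and 77.8% of the CKO list. Of all 156 tested members 75% rose in WT and 40.4% in CKO, so these shares are close to those of any tested member. With sex in the fit, 72 members rose in WT, against 45.4% of all tested genes called.

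**Figure D2:**
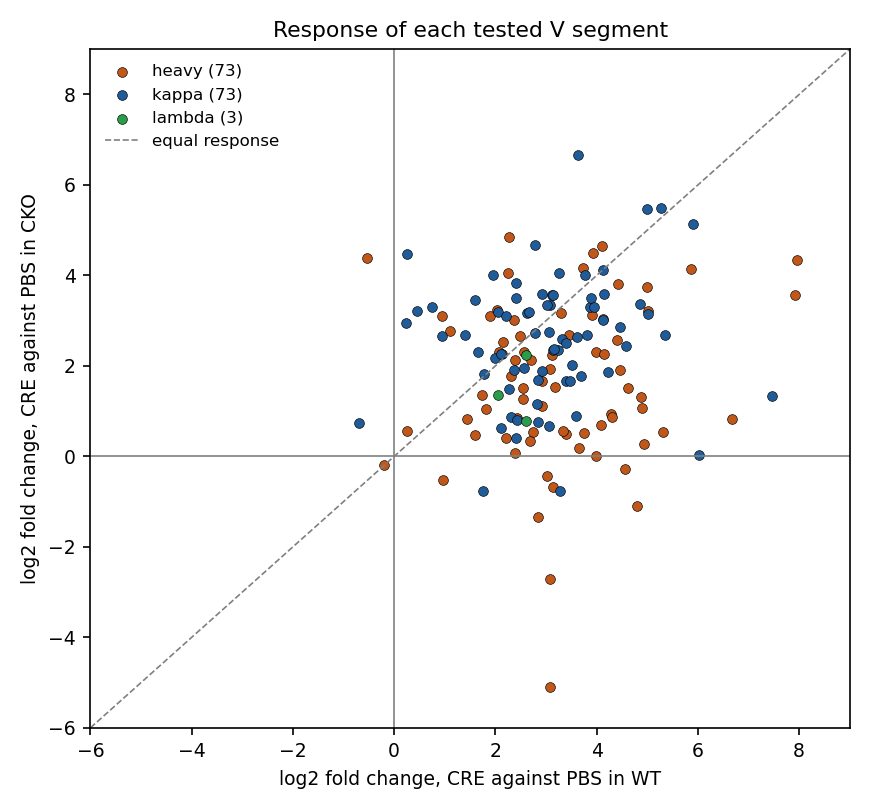
Log2 fold change with CRE in CKO against that in WT for 149 tested members (points, coloured by locus, each from 3 against 3 libraries), leaving out 7 tested members with a group or genotype at 0. Points below the dashed line, 56 of 73 heavy and 43 of 73 kappa, had the smaller value in CKO. The comparisons share no library.

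Among heavy segments the smallest adjusted p-values in WT belonged to Ighv5-9-1, Ighv9-3 and Ighv1-53. Ighv5-9-1 stood at 0.307, 0.759 and 0.590 CPM with PBS and at 9.58, 3.90 and 6.90 with CRE, a log2 rise of 3.65 ± 0.45 (SE, edgeR adjusted p = 7.00e-05). Ighv9-3 went from 1.64, 1.87 and 1.24 CPM to 16.0, 19.6 and 55.1. Ighv1-53 went from 1.33, 0.607 and 1.42 to 23.8, 8.03 and 23.4. Each was higher in every CRE library than in every PBS library of WT. In CKO none of them passed: Ighv5-9-1 stood at 0.370, 0.325 and 0.143 CPM with PBS and at 0.185, 0.287 and 0.470 with CRE, and the log2 differences were 0.19 for Ighv5-9-1, 0.93 for Ighv9-3 and 0.69 for Ighv1-53. The difference between the responses was itself tested and did not pass for any of them (edgeR adjusted p = 0.231 for each).

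Among kappa segments Igkv14-126 had the smallest adjusted p-value in WT. It stood at 0.614, 0.253 and 0.295 CPM with PBS and at 8.60, 39.8 and 21.3 with CRE (log2 rise 5.90 ± 0.73, SE, edgeR adjusted p = 7.01e-05). In CKO it stood at 0.317, 0.139 and 0.335 with PBS and at 8.74, 15.7 and 3.52 with CRE (5.14 ± 0.77, edgeR adjusted p = 0.000573). The smallest p-values in CKO belonged to Igkv1-88, Igkv4-68, Igkv19-93 and Igkv6-17, with log2 rises of 4.48, 3.16, 3.56 and 4.05. The last 3 also rose in WT, by 2.63, 3.11 and 3.25. Some segments did not pass in either genotype: Ighv5-9 stood at 0.059 to 2.64 CPM over the PBS libraries and at 0.553 to 1.18 over the CRE libraries. Ighv1-84, at most 1.26 CPM in any library, and Igkv4-63 did not pass either.

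All 3 lambda segments rose in WT, Iglv1 by 2.61, Iglv2 by 2.60 and Iglv3 by 2.04 on the log2 scale. In CKO Iglv1 rose by 2.24 and Iglv3 by 1.35, while Iglv2 had a difference of 0.78 that did not pass. Lambda antibodies are a small part of the mouse repertoire, and Iglv1 is its main V segment. Iglv1 held 64.1% to 91.1% of the lambda V counts in each library. Lambda made up 12.5% ± 2.46 of light chain V counts in WT with PBS and 14.1% ± 4.51 in CKO with PBS (SD, n = 3). With CRE it made up 8.40% ± 2.41 in WT and 9.32% ± 3.08 in CKO (SD, n = 3). The averaged difference with CRE was -4.46 percentage points (exact permutation p = 0.045), which did not pass after adjustment over 6 values (0.135).

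Genes of B and plasma cells were counted in the same fit, to be read against the 28.6% of all tested genes that were higher with CRE in WT and the 20.6% in CKO. Of 12 immunoglobulin constant genes, which code for the antibody's class, 12 rose in WT and 10 in CKO with CRE. Of 13 plasma cell genes 10 rose in each genotype. Prdm1, a regulator of plasma cell formation, and Sdc1, a surface protein that epithelial cells also carry, did not pass in either, with log2 differences of -0.04 and 0.13 in WT and 0.07 and 0.13 in CKO. Tnfrsf17, also on the plasma cell list, did not pass in WT (log2 difference 0.49, edgeR adjusted p = 0.384). Jchain, which joins IgA and IgM units, stood at 33.4 to 47.5 CPM in WT with PBS and at 254 to 397 with CRE. Of 14 mature B cell genes 13 rose and 1 (Ebf1) fell in WT, and 4 rose and 1 (Ebf1) fell in CKO. Ms4a1, which codes for the surface protein CD20, stood at 10.9, 13.0 and 19.1 CPM in WT with PBS and at 42.5, 45.9 and 63.3 with CRE. In CKO it stood at 9.37, 12.2 and 17.7 with PBS and at 11.3, 22.1 and 32.7 with CRE. Of 7 tested germinal centre genes 4 rose in WT and 3 in CKO. Under CRE 12 of the 14 mature B cell genes had a raw p below 0.05 between the genotypes in edgeR, against 18.5% of all tested genes, with a median log2 difference of -1.01, and none passed after adjustment. Their part in the V segment results was not tested.

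The machinery that joins V segments was nearly absent. Rag1, the recombinase, stood at 0 to 0.206 CPM and Igll1, a surrogate light chain gene of B cell precursors, at 0 to 0.191 over the 12 libraries. Of 2 tested genes of the recombination and precursor list 1 rose in WT, Dntt, which codes for the enzyme that adds bases where segments are joined, and 0 in CKO. V segments of the T cell receptor served as a comparison: of 15 tested, 5 rose in WT and 1 in CKO, and of 11 T cell genes 9 and 2 rose. Of 6 tested ectopic lymphoid tissue genes, out of 8 listed, 6 rose in WT and 3 in CKO. Cr2 and Fcer2a were among the tested ones and are on the mature B cell list too. Of 6 erythroid genes 1 rose in WT and 0 in CKO. Of 2 tested thymus precursor genes 1 rose in WT, again Dntt, 1 fell (Cd1d1), and 0 were called in CKO. Of 7 lung epithelial genes 2 rose and 5 fell in WT, and 1 rose and 5 fell in CKO.

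Usage, the share of a locus' V counts that each segment held, differed from library to library. The shares are of counts and are not corrected for segment length. The largest heavy segment held between 6.69% and 13.7% of heavy V counts, and 10 different segments were largest in the 12 libraries. The largest kappa segment held between 7.15% and 24.5%, and 6 different segments were largest. Igkv1-110 was largest in 4 libraries and held 4.77% to 15.9% of kappa counts. The highest share of any heavy or kappa segment was that of Igkv1-117 in replicate 2 of CKO with PBS, at 24.5%, against 3.86% to 8.83% in the other 11 libraries. In the same library Ighv1-50 was the largest heavy segment at 13.5%, against 0 to 4.83% elsewhere.

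The members spread evenly enough that, in group means, the heavy and kappa loci each behaved like about 40 equally used segments. This effective number is the exponential of the Shannon entropy of the shares, computed after thinning every library to 724 heavy and 1007 kappa counts. For heavy segments it was 42.7 ± 3.75 in WT with PBS, 40.3 ± 6.27 in CKO with PBS, 43.4 ± 2.44 in WT with CRE and 38.2 ± 3.71 in CKO with CRE (SD, n = 3). For kappa segments it was 39.0 ± 2.59, 38.0 ± 9.98, 38.5 ± 4.57 and 39.4 ± 1.68 in the same order (SD, n = 3). Replicate 2 of CKO with PBS had the lowest kappa number, 26.6. Neither the heavy nor the kappa number passed a test between treatments (exact permutation p = 0.785 and 0.945) or genotypes (0.165 and 0.985). The larger V counts with CRE thus came without a detectable change in this number at this depth.

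A pair of segments took a larger share with CRE in both genotypes. Ighv8-12 held 2.26%, 1.24% and 0.978% of heavy V counts in WT with PBS and 7.65%, 6.80% and 11.4% in WT with CRE. In CKO it held 2.60%, 0.887% and 2.07% with PBS and 2.88%, 13.7% and 5.50% with CRE. Its share was higher in all 6 CRE libraries than in all 6 PBS libraries, narrowly so in replicate 1 of CKO. The level of Ighv8-12 rose by 5.87 ± 0.84 on the log2 scale in WT and by 4.15 ± 0.82 in CKO (SE, edgeR adjusted p = 0.000164 and 0.00274).

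Igkv12-44 held 2.71%, 1.04% and 2.68% of kappa V counts in WT with PBS and 5.92%, 4.66% and 12.1% in WT with CRE. In CKO it held 0.894%, 0.722% and 1.99% with PBS and 3.44%, 9.45% and 7.63% with CRE. The 6 CRE libraries again lay above the 6 PBS libraries. Its level rose by 5.27 ± 0.94 on the log2 scale in WT and by 5.49 ± 1.00 in CKO (SE, edgeR adjusted p = 0.000651 and 0.00175). Of 87 heavy and 85 kappa members, Ighv8-12 and Igkv12-44 were the only ones whose shares did not overlap between all CRE and all PBS libraries, and none had a lower share without overlap. That pattern was noticed in these data, so it is a description with no test.

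Ighv11-2 and Igkv14-126 are textbook partners in B-1 cell antibodies that bind phosphatidylcholine. Ighv11-2 held 0.0806%, 0 and 0.122% of heavy V counts in WT with PBS and 0.760%, 3.86% and 1.35% in WT with CRE. In CKO it held 2.05%, 0 and 0.276% with PBS and 6.72%, 1.61% and 0.673% with CRE. Igkv14-126 held 0.114% to 0.650% of kappa V counts over the PBS libraries, 1.28%, 6.46% and 1.83% in WT with CRE, and 5.43%, 2.11% and 0.479% in CKO with CRE. Replicate 2 of WT with CRE and replicate 1 of CKO with CRE had the highest share of both segments. Ighv11-2 has a relative, Ighv11-1, at 98.9% identity, so part of its count may belong there. The levels of both rose with CRE in both genotypes. Ighv11-2 had 2 counts in all in WT with PBS and 553 in WT with CRE, a ratio of 289 after scaling to library totals, with an exact 95% counting interval of 79.5 to 2389 (edgeR adjusted p = 0.000133). In CKO it rose by 3.57 ± 0.83 on the log2 scale (SE, edgeR adjusted p = 0.00619).

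**Figure D3:**
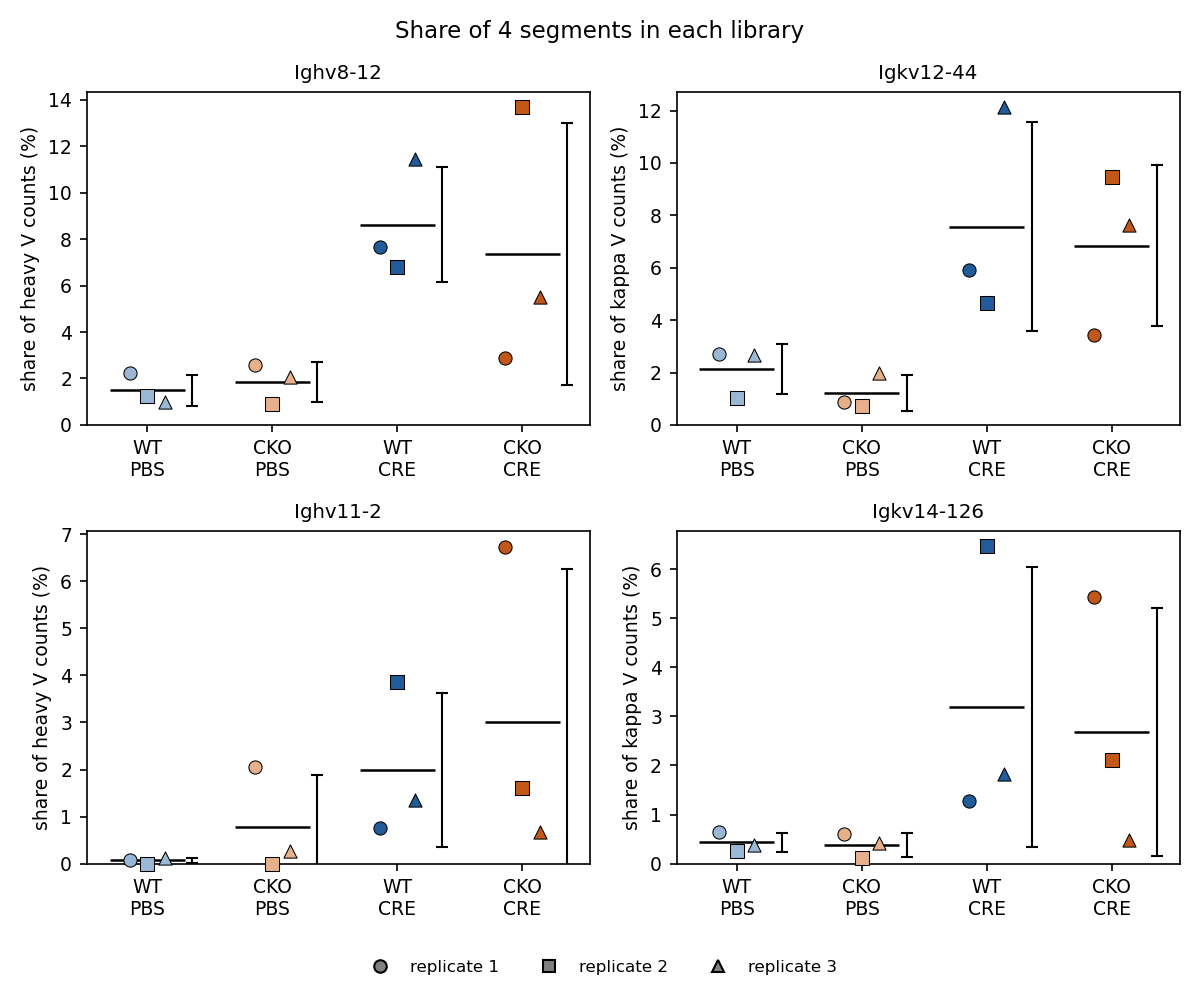
Share of Ighv8-12 and Ighv11-2 among heavy V counts and of Igkv12-44 and Igkv14-126 among kappa V counts in each library (points), with the mean (line) and SD (bar, cut at 0) of 3 libraries. Ighv8-12 reaches 13.7% and Igkv12-44 12.1%, and both are higher in every CRE library than in every PBS library.

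Between the genotypes no member was called under PBS, against 0.109% of all tested genes, with 11 members at a raw p below 0.05 in edgeR, against 5.32% of all tested genes. DESeq2 called 1 member there, against 0.509% of the genes it tested. Under CRE 7 members were called, 5 lower and 2 higher in CKO, against 0.916% of all tested genes called, 0.366% lower and 0.549% higher. The 50-count rule favours segments that are high in some group here as well, so these counts are descriptions. DESeq2 called 23, of which 20 were lower, against 4.68% of genes, and limma-voom called 54, of which 43 were lower, against 43.8% of genes. Without replicate 2 of CKO with CRE the count was 38, of which 35 were lower, against 28.5% of all tested genes called. It was 3 without replicate 3 of WT with CRE, and 4 without any 1 of the WT libraries with PBS, replicate 1 of WT with CRE or replicate 3 of CKO with CRE. In those fits 0.212% to 0.446% of all tested genes were called. The median log2 difference over the tested members was -1.81 for heavy and -0.72 for kappa segments, against 0.01 over all tested genes. For the interaction, the difference between the CRE responses, 0 members were called against 0.0458% of genes, with 27 at a raw p below 0.05 in edgeR, against 10.3% of genes. DESeq2 called 5, against 0.696% of genes, and limma-voom 7, against 25% of genes. Without replicate 2 of CKO with CRE 8 were called, against 14.8% of genes.

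The 5 segments lower in CKO with CRE were all heavy. Ighv5-9-1 differed most clearly, with the values given above (log2 difference -4.44 ± 0.49, SE, edgeR adjusted p = 0.00117), and was called under all alternatives run. Ighv9-3 stood at 4.98, 1.26 and 3.11 CPM in CKO with CRE (-3.33 ± 0.52, edgeR adjusted p = 0.0130), and Ighv1-53 at 2.40, 1.09 and 3.99 (-2.92 ± 0.50, edgeR adjusted p = 0.0207). Ighv1-66 stood at 4.30, 5.17 and 29.4 CPM in WT with CRE and at 0, 0.746 and 0.529 in CKO (-4.93 ± 0.89, edgeR adjusted p = 0.0269). Ighv1-61 had 68, 17 and 102 counts in WT with CRE and 0 in each CKO library with CRE. That is at least 19.4-fold lower, taking 3 counts per library as the floor (edgeR adjusted p = 0.0192). Ighv1-61 met the summed-count rule for members only through WT with CRE, so its fold and p-values are descriptions. Its closest relative Ighv1-52 is 98.6% identical, so reads may have been split between them. A fit of the CRE groups alone called only 1 member, against 0.176% of the genes it tested. The edgeR adjusted p-values there were 0.161 for Ighv9-3, 0.177 for Ighv1-61, 0.168 for Ighv1-53 and 0.233 for Ighv1-66.

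The 2 segments higher in CKO with CRE were Igkv1-88 and Ighv5-1. Igkv1-88 stood at 0.491, 0.440 and 1.18 CPM in WT with CRE and at 2.71, 4.30 and 5.23 in CKO (log2 difference 2.47 ± 0.51, SE, edgeR adjusted p = 0.0457). Without replicate 1 of WT with CRE the adjusted p of Igkv1-88 was 0.205. Ighv5-1, an annotated pseudogene, had no count in the 6 WT libraries and 9, 43 and 27 in CKO with CRE. That is at least 9.14-fold higher by the same floor (edgeR adjusted p = 0.0492), and leaving out replicate 1 of WT with CRE gave 0.166. Of the 81 counts of Ighv5-1, 79 came from CKO with CRE. It thus met the summed-count rule for members only through the group where it was high, and its fold and p-values are descriptions.

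Heavy chain usage in the CKO libraries with CRE lay outside the range of the other groups in its Ighv1 share, farthest in replicate 2. The Ighv1 family, the largest of the mouse heavy chain families, which lies in the part of the locus distal to the joining segments, held 54.1%, 50.3% and 55.9% of heavy V counts in WT with PBS. It held 57.4%, 54.5% and 51.1% in WT with CRE, 50.4%, 65.7% and 49.7% in CKO with PBS, and 44.2%, 23.7% and 38.0% in CKO with CRE. All 3 CKO libraries with CRE lay below the other 9. Under CRE the difference between the genotypes was -19.0 percentage points, and -13.3 without replicate 2 of CKO. These libraries were singled out after their values were seen, so that difference is a description with no test. Averaged over both treatments the genotypes differed by -8.59 (exact permutation p = 0.125, adjusted 0.315). With CRE the averaged change was -9.52 (exact permutation p = 0.095, adjusted 0.1425), made up of 0.94 in WT and -20.0 in CKO. Neither averaged difference passed. The places of the Ighv1 share were taken by several families: in replicate 2 the Ighv2 family held 21.2%, against 3.78% to 14.8% in the other 11 libraries.

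In replicate 2 of CKO with CRE some common segments were missing. Of 39 heavy members with a median share of at least 0.5% in the other libraries, 6 had no count there: Ighv1-81, Ighv1-72, Ighv1-55, Ighv1-50, Ighv1-78 and Ighv1-19. A further 6 were below 0.1 times their median elsewhere. Ighv1-81, whose sequence is shown above, held 3.92% to 12.7% of heavy counts in every other library and 0 of 2973 counts here, which allows a share of up to 0.101%. Ighv1-55 held 0.560% to 6.48% elsewhere. Kappa usage showed nothing of the kind: of 41 common kappa members none was at 0 or below 0.1 times its median in that library. Other libraries lacked 0 to 5 common heavy segments, the 5 in replicate 3 of CKO with PBS, which had only 724 heavy counts.

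**Figure D4:**
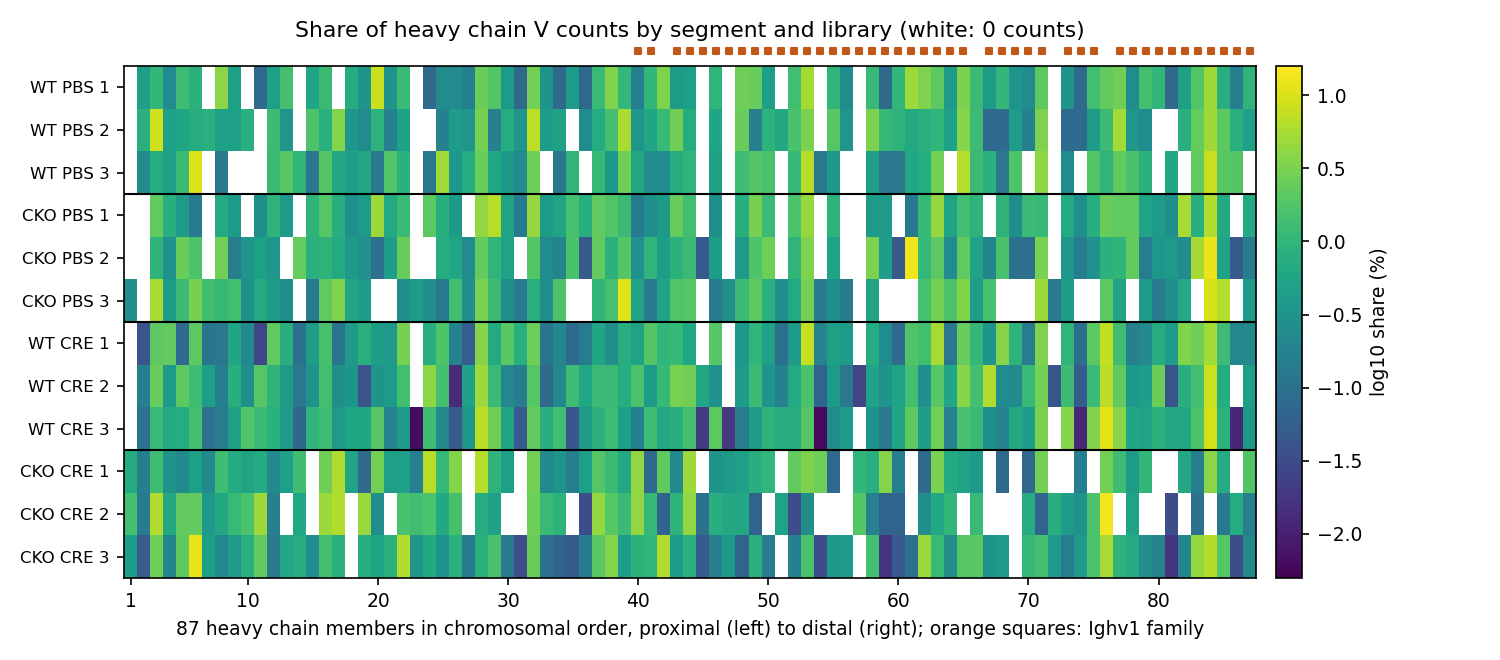
Share of heavy V counts (colour, log10 of the percent; white, no count) of the 87 heavy members in chromosomal order (x) in each of the 12 libraries (y). Replicate 2 of CKO with CRE has 22 white cells, 14 of them among the 44 Ighv1 segments (orange squares), against 11 in replicate 1, 3 in replicate 3 and 1 to 13 in the libraries of the other groups.

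Compared over all pairs of libraries, replicate 2 of CKO with CRE shared the least heavy usage with the rest. On average 62.4% of its heavy V counts were not shared with another library's distribution, against 43.4% to 51.5% for the other 11. For kappa it was 35.7%, inside the 34.4% to 47.3% of the others, with replicate 2 of CKO with PBS highest. Within groups the mean unshared heavy fraction was 34.8% in WT with CRE, 43.6% in WT with PBS, 47.3% in CKO with PBS and 54.9% in CKO with CRE. Libraries were not thinned for this measure, and low counts raise it by themselves.

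The balance of heavy to kappa counts separated the same libraries. There were 65.1, 66.5 and 69.3 heavy V counts per 100 kappa V counts in WT with CRE and 62.6 to 67.2 in WT with PBS. In CKO with PBS there were 72.7, 77.1 and 43.6, and in CKO with CRE 47.8, 22.9 and 47.5. Replicate 3 of CKO with PBS and the 3 CKO libraries with CRE were thus the 4 lowest. Under CRE the genotype means differed by -27.6 heavy counts per 100, and by -19.3 without replicate 2 of CKO. The ratio was chosen after its values were seen and gets no test. Heavy V counts per 100 heavy constant region counts were 17.7, 17.1 and 26.8 in WT with CRE and 13.8, 6.38 and 14.5 in CKO with CRE. Kappa V counts per 100 Igkc counts overlapped, at 53.2, 56.0 and 73.1 in WT and 67.4, 55.1 and 72.1 in CKO.

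A set of 5 heavy members had almost no counts in WT. These were Ighv5-1, Ighv1-37, Ighv4-2, Ighv1-14 and Ighv8-11, the members with at most 5 counts over the 6 WT libraries, where each had 0 to 3, and 3 of them are annotated as pseudogenes. No kappa member met that limit, but Igkv18-36 stood 1 count past it, with 6 counts over the WT libraries. It had 0, 0 and 0 in CKO with PBS and 1, 1 and 159 in CKO with CRE, so its counts came almost all from replicate 3. Together the 5 heavy members had 0, 0 and 0 counts in WT with PBS and 0, 5 and 4 in WT with CRE. They had 0, 0 and 8 in CKO with PBS and 29, 181 and 93 in CKO with CRE, or 2.32%, 6.09% and 1.56% of the heavy V counts there. The 4 libraries with 8 or more counts were the 4 with the lowest ratio of heavy to kappa counts. Ighv4-2 had 1 count over the WT libraries and 2, 41 and 20 in CKO with CRE. Ighv1-37 had 13, 54 and 0 in CKO with CRE, and Ighv1-20 is 98.6% identical to it. The 5 were picked after their values were seen and get no test. Every member had to reach the summed count of the member rule, so those near 0 in WT had to have their counts in CKO. Members near 0 over the CKO libraries were not searched for, so no count for the reverse direction is given.

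**Figure D5:**
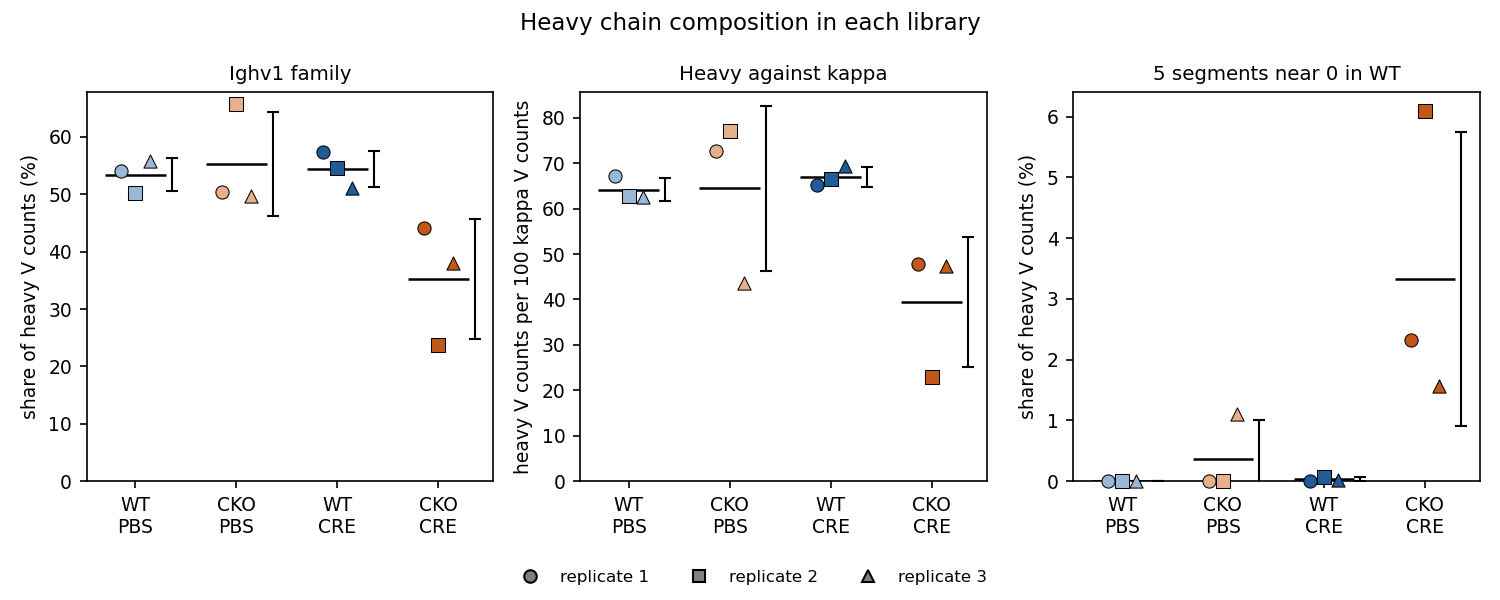
Ighv1 family share, heavy V counts per 100 kappa V counts, and share of the 5 segments near 0 in WT, in each library (points) with the mean (line) and SD (bar, cut at 0) of 3 libraries. CKO with CRE lies lowest in the first panel (23.7% to 44.2%) and highest in the last, and replicate 3 of CKO with PBS lies with it in the middle (43.6) and last panels. The segments of the last panel were picked for being near 0 in WT, so higher values in CKO there follow from that choice.

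Whether the animals of the 2 genotypes carried the same heavy chain alleles is not given in the labels, and the part of such a difference in the CKO values was not tested. The part of sex in the summed V level, the Ighv1 share and the heavy to kappa ratio was not tested either. Replicate 1 of CKO with CRE and replicate 3 of CKO with PBS were male and the other 2 CKO libraries with CRE female. The 2 female libraries of WT with CRE had 66.5 and 69.3 heavy counts per 100 kappa counts, next to 65.1 in the male one.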

How the data were processed

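The deposited table held whole-number read counts per Ensembl gene for 12 libraries, and the authors' steps named in the submitters' processing notes were fastp and STAR on mm10. For the counting tool, its annotation, its use of strand and its handling of reads that match several segments, no detail was found (not given in the sources used here). Per the labels' protocols, libraries came from poly-A RNA with a kit for fragments of about 150 to 200 bases, which can be shorter than the stretch that separates related V segments. Of 54532 rows 54495 matched GENCODE M21, which gave symbols, positions and sequences. All columns were mapped to samples through the labels.

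Counts were fitted with edgeR 4.0.16 (TMM scaling, filterByExpr, quasi-likelihood test, 4 groups in 1 fit) in R 4.3.3. DESeq2 1.42.0, limma 3.58.1 with voom, other filters, a replicate block, sex as a covariate and left-out libraries were the alternatives. The scripts were tested on simulated data. Levels are CPM of the library total. Relatives were found with blastn 2.17.0. Single values per library were tested by exact permutation within strata (400 relabellings). Floors of 3 counts and all intervals cover counting error only.

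The members and gene lists were chosen with earlier results of these data known. Segments named were drawn from the 8 heavy, 8 kappa and all lambda members with the highest mean share and the largest of each library. Also eligible were those called by genotype and the 4 heavy and 4 kappa members with the widest range of share in a group. So were those next to the 50-count rule, and the 4 with the smallest and the 4 with the largest p in each CRE comparison. Not every segment that met this rule is given here. Igkv12-44, Ighv8-12, Ighv11-2 and Igkv14-126 fall under that rule. The segments at 0 in replicate 2 of CKO with CRE, those near 0 in WT, those called lower with CRE in CKO under an alternative, close relatives of named segments, the genotype difference of the Ighv1 share under CRE and the ratio of heavy to kappa counts were chosen after their values were seen.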

Additional observations from a re-analysis of the deposited data

How the results depend on the processing

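In WT every member called with CRE was higher under all alternatives run, but the number called was not the same. It was 117 in the main fit, 72 with sex as a covariate and 140 with no filter on low counts. Of all genes tested in these fits 57%, 45.4% and 29.1% were called. In CKO 1 member was called lower under each of 6 alternatives. It was Ighv1-50 with no filter on low counts, with sex as a covariate and without replicate 1 or 3 of CKO with PBS, Ighv7-1 without replicate 1 of CKO with CRE and Ighv1-55 without replicate 3 of it. The counts by genotype were the least stable. With no filter on low counts, 96 members were called with CRE in CKO (95 higher, 1 lower), 42 between the genotypes under CRE and 8 for the interaction. Of all genes in that fit 19.5%, 2.14% and 0.251% were called. Fits of only the groups compared gave 40 with CRE in CKO, 1 between the genotypes under CRE and 1 under PBS, against 23%, 0.176% and 0.447% of genes. With sex as a covariate 72 were called with CRE in WT and 11 between the genotypes under CRE, against 45.4% and 0.967% of genes. DESeq2 called 23 between the genotypes under CRE, 1 under PBS and 5 for the interaction, against 4.68%, 0.509% and 0.696% of genes. The limma-voom fit called 54 under CRE and 7 for the interaction, against 43.8% and 25% of genes. The cause of these shifts was not tested. Leaving out 1 library at a time gave 42 to 88 calls with CRE in CKO, 91 to 130 in WT, 3 to 38 between the genotypes under CRE and 0 to 8 for the interaction. Of all tested genes 26.5% to 43.3%, 47.7% to 60.6%, 0.212% to 28.5% and 0 to 14.8% were called, in the same order.

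Samples with the same replicate number correlated between -0.03 and 0.18 in their deviations from the group means (18 pairs, median 0.02). Those with different numbers correlated between -0.25 and 0.18 (36 pairs, median -0.01). The ranges overlapped, so the main fit did not use the numbers as pairs. Such correlations cannot show that no weak pairing exists. With the replicate block 112 members were called with CRE in WT, 62 in CKO and 8 between the genotypes under CRE, against 56.8%, 40.1% and 0.864% of genes. The edgeR adjusted p of Ighv5-1 in that fit was 0.0536. The log2 rise of the summed V level stayed at 2.66 with the block. The exact permutation test within blocks gave an adjusted p of 0.1875, and its few relabellings limit how low p can go. The rise lay between 2.45 and 3.01 with 1 library left out.

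The effective number of heavy segments changed with CRE by 0.92 without thinning and by -1.90 to 1.09 with left-out libraries. For kappa segments the difference with CRE was -2.93 without the largest segment of each library and -2.43 to 2.23 with left-out libraries. Between the genotypes it was 0.71 by inverse Simpson, 1.16 without the largest segment and -1.89 to 2.76 with left-out libraries. None of these differed beyond the spread of the libraries. The change of the Ighv1 share with CRE, -9.52 percentage points and not past the threshold (exact permutation, adjusted p = 0.1425), was -11.1 without the largest segment (adjusted p = 0.03) and -11.7 to -6.64 with left-out libraries. The change of the V to constant count ratio with CRE, -0.23 on the log2 scale, did not pass either (exact permutation, adjusted p = 0.1425). It lay between -0.32 and -0.15 with left-out libraries and passed in 1 of those 12 fits, without replicate 3 of WT with CRE (adjusted p = 0.015). The 724 heavy counts of the shallowest library limit what usage can show.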

Other observations

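Under CRE the shares of 10 of 87 heavy members were lower in every CKO library than in every WT library, and those of 9 were higher. For kappa 2 of 85 were lower and 7 higher. Under PBS 8 heavy members were lower and 3 higher without overlap, and 5 kappa members lower and 3 higher. Complete separation of 3 against 3 libraries has p = 0.1 in an exact permutation test, so some is expected without any difference between groups. Shares exist only within a V locus, so no count over all genes stands beside these. They are descriptions with no test. Igkv6-15 held 0.870%, 1.15% and 0.935% of kappa V counts in WT with CRE and 5.63%, 5.83% and 2.87% in CKO with CRE, and 1.41% to 4.16% over the PBS libraries. Its level did not pass the test between the genotypes (log2 difference 1.60, edgeR adjusted p = 0.139).

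Ighv5-6 was the largest heavy segment in replicate 3 of WT with PBS, at 9.90%, and in replicate 3 of CKO with CRE, at 11.6%, and held 0.137% to 3.04% in the other 10 libraries. Igkv4-63 had 244 counts in replicate 2 of CKO with CRE and at most 38 in any other library. The V to constant count ratio was highest in replicate 3 of WT with CRE, at 44.1 V counts per 100 constant counts, and lowest in replicate 2 of CKO with CRE, at 23.7.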
